A study of Mus musculus with 43 samples.

Results

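The genes described here are the enzymes that make sterols from acetyl-CoA, the SREBP proteins and partners that control them, and a few genes of sterol transfer, turnover and efflux. The list has 28 genes out of 53379 gene IDs in the RNA tables. Members were chosen from this list by measured RNA level. A gene met this level rule in a table when it reached 1 CPM (a read count scaled to the size of its library) in at least 6 libraries, and 27 of the 28 did so in the female table and in the male table. The exception was Fdps. Open-chromatin regions were taken when they came within 1 kb of the start of one of the 28 genes or overlapped its span. This gave 129 of 165184 regions in the female table and 99 of 192919 in the male table, those of Fdps included. A region that overlapped a span only in part counts below as inside the gene.

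The tissue was frontal cortex of wild-type Swiss Webster mice, an outbred stock, aged 2 months. From weaning at postnatal day 25 the mice lived in environmental enrichment (EE), meaning bigger cages fitted with a wheel, a tube, additional nesting and toys that were exchanged, or in standard housing (SH), a plain cage with bedding and a nestlet. NeuN-positive nuclei, which are neuronal, were sorted from tissue fixed in paraformaldehyde, so cytoplasmic mRNA was not measured. Female RNA had 6 EE and 6 SH libraries, male RNA 6 EE and 6 SH, female ATAC 3 EE and 3 SH, and male ATAC 6 EE and 7 SH. Tables and run names are separate for females and males, so a difference between sexes cannot be told apart from one between runs. The labels do not say that libraries came from separate animals, so the p-values measure the spread between these samples, which may be technical.

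Cells make cholesterol through a long chain of enzymes that first builds mevalonate and isoprenoid units, then squalene, then lanosterol, and finally trims lanosterol to cholesterol. The SREBP transcription factors sit in the endoplasmic reticulum with the escort protein Scap. When sterols are scarce, Scap carries them to the Golgi, where they are cut and released to the nucleus, and when sterols are plentiful the Insig proteins hold Scap back. SREBP2, from Srebf2, mainly drives sterol genes, and SREBP1, from Srebf1, mainly drives fatty acid genes. Brain cholesterol is made locally, because lipoproteins of the blood do not cross into it, and much of it is made by glia. Neurons remove the excess by hydroxylation through Cyp46a1.

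Promoter sequences of RefSeq (GRCm38.p6, the assembly also called mm10) were found for 24 of the 28 genes. Each window runs 250 bases before to 50 bases after a RefSeq start, 300 bases in all, and is printed 5′ to 3′ on the strand of the gene. The windows of Hmgcs1, Srebf2, Cyp51 and Msmo1 are shown because these genes carry the RNA values described below and their windows lie inside open regions of both ATAC tables. Capitals mark matches to the SREBP element TCACNCCAC and to CCAAT, the box bound by NF-Y, an SREBP partner, on either strand, so that ATTGG is the box read on the opposite strand.
Hmgcs1, chr13:119690101-119690400, plus strand: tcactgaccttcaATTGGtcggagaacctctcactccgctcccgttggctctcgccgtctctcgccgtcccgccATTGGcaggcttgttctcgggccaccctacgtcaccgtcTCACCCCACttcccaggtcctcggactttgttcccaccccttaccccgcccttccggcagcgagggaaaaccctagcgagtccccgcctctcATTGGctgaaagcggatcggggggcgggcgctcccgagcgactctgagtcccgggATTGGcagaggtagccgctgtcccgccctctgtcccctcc
Srebf2, chr15:82147019-82147318, plus strand: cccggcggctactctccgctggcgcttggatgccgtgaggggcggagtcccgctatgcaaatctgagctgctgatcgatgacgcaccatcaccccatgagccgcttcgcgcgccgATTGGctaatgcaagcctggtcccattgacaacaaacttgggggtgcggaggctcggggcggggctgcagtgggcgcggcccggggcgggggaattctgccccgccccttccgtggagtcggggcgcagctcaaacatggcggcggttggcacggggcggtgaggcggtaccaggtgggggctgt
Cyp51, chr5:4104648-4104947, minus strand: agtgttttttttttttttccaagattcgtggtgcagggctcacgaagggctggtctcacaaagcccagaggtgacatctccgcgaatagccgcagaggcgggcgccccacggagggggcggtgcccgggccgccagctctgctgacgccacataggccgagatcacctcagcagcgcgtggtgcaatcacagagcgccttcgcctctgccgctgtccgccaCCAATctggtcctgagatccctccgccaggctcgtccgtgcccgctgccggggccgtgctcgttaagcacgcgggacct
Msmo1, chr8:64733529-64733828, minus strand: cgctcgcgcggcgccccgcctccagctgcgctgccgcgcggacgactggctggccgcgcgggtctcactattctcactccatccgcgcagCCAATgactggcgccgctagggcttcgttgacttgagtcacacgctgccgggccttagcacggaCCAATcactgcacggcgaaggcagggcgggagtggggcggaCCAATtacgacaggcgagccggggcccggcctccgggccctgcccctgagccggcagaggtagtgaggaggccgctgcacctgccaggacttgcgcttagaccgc

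The Hmgcs1 window holds the SREBP element as TCACCCCAC at position -137 from the start, with 4 CCAAT boxes. The Msmo1 window holds 3 CCAAT boxes, and the Srebf2 and Cyp51 windows hold 1 each. Hmgcs1 was the one gene of the 24 with an exact match to the SREBP element, in 1 of their 32 windows. Such matches occurred in 1.24% of 32851 promoter windows of all genes. CCAAT occurred in windows of 21 of the 24 genes, or in 22 of their 32 windows (68.8%), against 37.4% of all windows. The E-box CACGTG, searched on both strands as well, occurred in windows of 6 of the 24 genes. It was in 7 of their 32 windows (21.9%), where overlapping Scap windows share the same match, against 7.15% of all windows. Among windows that overlapped open regions of both tables the shares over all genes were 1.14%, 37.6% and 9.93% of 14710 windows. Of the 30 such windows of these genes, 1, 20 and 7 held the motifs. A match describes the letters in the window and is not evidence of binding, and the motifs do not overlap each other in these windows.

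Total counts per library ran from 10625194 to 15392672 in female RNA, 10394786 to 14622097 in male RNA, 19075368 to 26257066 in female ATAC and 27665194 to 73835546 in male ATAC. The 6 neuronal markers, Rbfox3 for NeuN among them, summed to 6645 to 7184 CPM in female EE libraries and 6677 to 7387 CPM in female SH libraries. They summed to 6430 to 7069 CPM in male EE and 6072 to 6627 CPM in male SH libraries. Markers of glia and vessels were present. Female SH replicate 2 stood apart, with the highest sum of each of the 5 non-neuronal lists (astrocytes 1596 CPM, against at most 1275 in the other female libraries, and oligodendrocytes 382 CPM, against at most 255). No marker was at 0 in every library of a table. Cldn5 of vessels had no read in 2 female EE, 3 male EE and 4 male SH libraries, and Tmem119 of microglia had none in 2 male EE libraries. In sorted bulk nuclei, fewer nuclei of a type and less RNA per nucleus cannot be told apart.

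Levels of different genes were compared per kb of gene span (mm10). Cyp46a1 was the most abundant of the 28 by this measure, at 1.92 CPM per kb in female and 2.04 CPM per kb in male libraries. Srebf2 followed at 1.58 and 1.52 CPM per kb, and Hmgcs1 stood at 1.139 and 1.205 CPM per kb. The median over all genes tested was 0.572 CPM per kb in the female and 0.559 CPM per kb in the male table. Nsdhl (0.114 and 0.116 CPM per kb) and Abca1 (0.149 and 0.0926 CPM per kb) were the least abundant that met the level rule. Neighbours in the order overlapped in their range over libraries, except Nsdhl above Fdps in females, and Cyp46a1 above Srebf2 and Stard4 above Nsdhl in males.

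**Figure D1:**
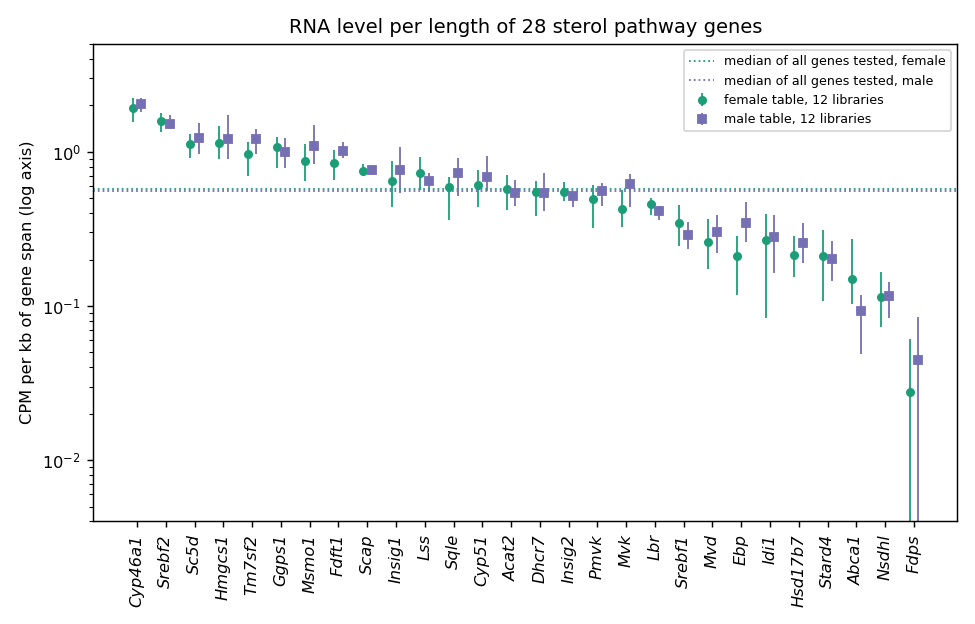
RNA level of each of the 28 genes per kb of gene span, on a log axis, in order of level. Points are means over the 12 libraries of a table, lines run from the lowest to the highest library, and dotted lines are the medians of all genes tested. Cyp46a1 and Srebf2 lie highest and Fdps lowest, where the lines leave the axis because its lowest libraries had no read.

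Fdps, farnesyl diphosphate synthase, lay outside the level rule. It averaged 0.27 ± 0.20 CPM in female EE and 0.19 ± 0.14 CPM in female SH libraries, and 0.39 ± 0.29 CPM in male EE and 0.36 ± 0.17 CPM in male SH libraries (SD, n = 6 each), and never passed 0.711 CPM. It shares 7512 bases of its span with Gm43738 on the same strand, so its count is uncertain. Just inside the rule stood Idi1 and Ebp, each at or above 1 CPM in 11 of the 12 female libraries and in all 12 male libraries.

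The main question was how the RNA of these genes differed between EE and SH. No member was called in either sex at an adjusted p under 0.05 (edgeR), where 0% of 14587 genes were called in the female and 0.0411% of 14597 in the male table. The mean differences were small and mostly positive. Higher and lower means in EE are counted here and below by the sign of the fitted log2 fold change. For Sc5d in females that sign was positive although the plain mean CPM was slightly lower in EE. In females 21 of the 27 genes had a higher mean in EE and 6 a lower one, with a median log2 fold change of 0.14 (range -0.08 to 0.48), against 50.6% of all genes higher and a median of 0.0019. In males 22 were higher and 5 lower, with a median of 0.13 (range -0.09 to 0.54), against 47.9% of all genes higher and a median of -0.0053. The 27 genes were chosen with results of these data known, so these counts describe them and are not a test.

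An unadjusted p under 0.05 with a higher mean in EE was reached by 3 of the 27 genes in females, where 4.53% of all genes did so (8.67% in either direction), and by 9 of the 27 in males, where 4.09% did so (8.03% in either direction). The 3 were Dhcr7, Mvd and Hmgcs1. The 9 were Srebf2, Msmo1, Cyp51, Sqle, Nsdhl, Idi1, Hmgcs1, Sc5d and Fdft1. None of the 27 had an unadjusted p under 0.05 with a lower mean in EE in either table, where 4.14% of all genes in the female and 3.94% in the male table did. DESeq2 gave an adjusted p to 17 of the 27 in females and to 4 of the 27 in males, since its own filter leaves out genes at low levels. It called 0 of the 17 in females, against 1.4% of 8648 genes, and 1 of the 4 in males, against 1.19% of 4126 genes. That gene was Srebf2 (adjusted p = 0.0102, with a range of 0.0102 to 0.346 over all settings tried). limma voom called 0 of the 27 in both tables, against 0.0274% of all genes in the female and 0% in the male table. Without the filter on low counts edgeR called 0 of the 27 in females, against 0.501% of 33545 genes, and 3 in males, against 0.376% of 36188 genes. The 3 were Msmo1, Hmgcs1 and Cyp51 (adjusted p = 0.00166, 0.00568 and 0.0390), and over all settings tried their adjusted p reached 0.426, 0.702 and 0.607.

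Each library was left out in turn. Given here are female SH replicate 2, male EE replicate 4 and those whose removal moved a member count or median strongly. Without female SH replicate 2, 22 of the 27 genes were higher in EE with a median of 0.14. Of the 27, 6 had an unadjusted p under 0.05, against 11.2% of all genes, where the fit of every library gave 8.67%. That fit without SH replicate 2 called 85 genes over the table and 0 of the 27. Leaving out female EE replicate 1 gave 6 members at that p as well (9.23% of all genes). EE replicate 5 gave 1 (9.23%) and SH replicate 4 gave 0 (7.15%). Without female EE replicate 4 the female median was 0.07, the lowest that leaving out any 1 library gave. Male EE replicate 4 had the highest level of the sterol enzymes in its table. Without it 22 of the 27 genes were still higher in EE, with a median of 0.08. An unadjusted p under 0.05 was then reached by 7 of the 27, against 7.87% of all genes. In 19 of the 27 genes (70.4%) the mean was higher in EE in both sexes, in 3 it was lower in both and in 5 the signs differed, against 23.2% higher in both among 14067 genes tested in both tables. The genes are shorter than most, with a median span of 17882 bases, and among genes under 60 kb 55.5% were higher in female EE and 43.1% in male EE.

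**Figure D2:**
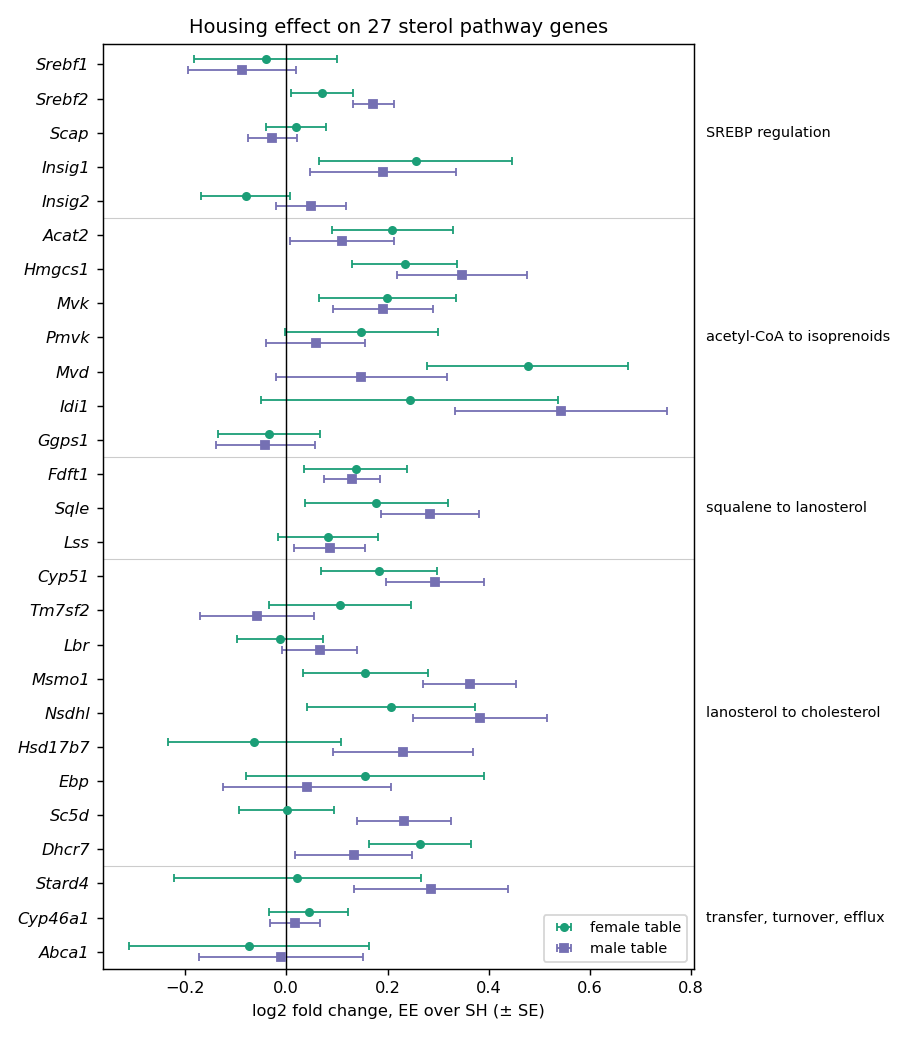
Log2 fold change of EE over SH for the 27 genes tested, by role, in the female and male tables. Points are fitted values, bars are the SE and the line at 0 marks no difference. Most enzymes between Acat2 and Dhcr7 lie right of 0 in both tables, and no gene was called.

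Of the 5 regulators, 3 had a higher mean in EE in each sex, and the median log2 fold change was 0.02 in females and 0.05 in males. Srebf2 (chr15:82147266-82205376), the gene of SREBP2, stood out among them in males. Its lowest, median and highest libraries were 89.3, 91.7 and 100.4 CPM in male EE, against 81.1, 81.8 and 87.1 CPM in male SH. The 6 EE libraries all lay above the 6 SH libraries. EE and SH libraries did not overlap in 1 of the 27 genes in males, against 0.541% of all genes, and in 0 of the 27 in females, against 0.548%. Srebf2 averaged 93.4 ± 4.53 CPM in male EE and 82.9 ± 2.45 CPM in male SH (SD, n = 6 each), a log2 fold change of 0.17 ± 0.04 (SE, adjusted p = 0.183).

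In females Srebf2 had 87.2, 95.4 and 99.998 CPM as lowest, median and highest in EE, against 77.7, 87.0 and 103 CPM in SH. The groups overlapped, and female SH replicate 2 was the highest library of all 12. The female log2 fold change was 0.07 ± 0.06 (adjusted p = 0.789), and it was 0.03 without SH replicate 6 and 0.11 without SH replicate 2. Insig1 (chr5:28071363-28078662), a retention protein and itself a target of SREBPs, ran at 3.50, 5.41 and 6.37 CPM in female EE, against 3.18, 3.87 and 6.23 CPM in female SH. It ran at 4.48, 5.87 and 7.84 CPM in male EE, against 3.95, 4.96 and 6.87 CPM in male SH. The groups overlapped in both sexes, and the log2 fold changes were 0.26 ± 0.19 (female) and 0.19 ± 0.14 (male), with adjusted p of 0.754 and 0.782. Without female SH replicate 2 the female value of Insig1 was 0.40, and without male EE replicate 4 the male value was 0.08.

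Scap, the escort, had 39.1 ± 1.89 CPM in female EE and 38.6 ± 2.64 CPM in female SH, and 38.7 ± 1.81 CPM in male EE and 39.5 ± 1.65 CPM in male SH (SD, n = 6 each). Insig2, the second retention protein, had log2 fold changes of -0.08 ± 0.09 in females and 0.05 ± 0.07 in males. Srebf1 had -0.04 ± 0.14 and -0.09 ± 0.11, so the mean of the gene for SREBP1 was not higher in EE in either sex. Reads of the Srebf1 span include 109 bases shared with Rai1 on the opposite strand.

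The plot of 10 genes by library shows the values behind these comparisons.

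**Figure D3:**
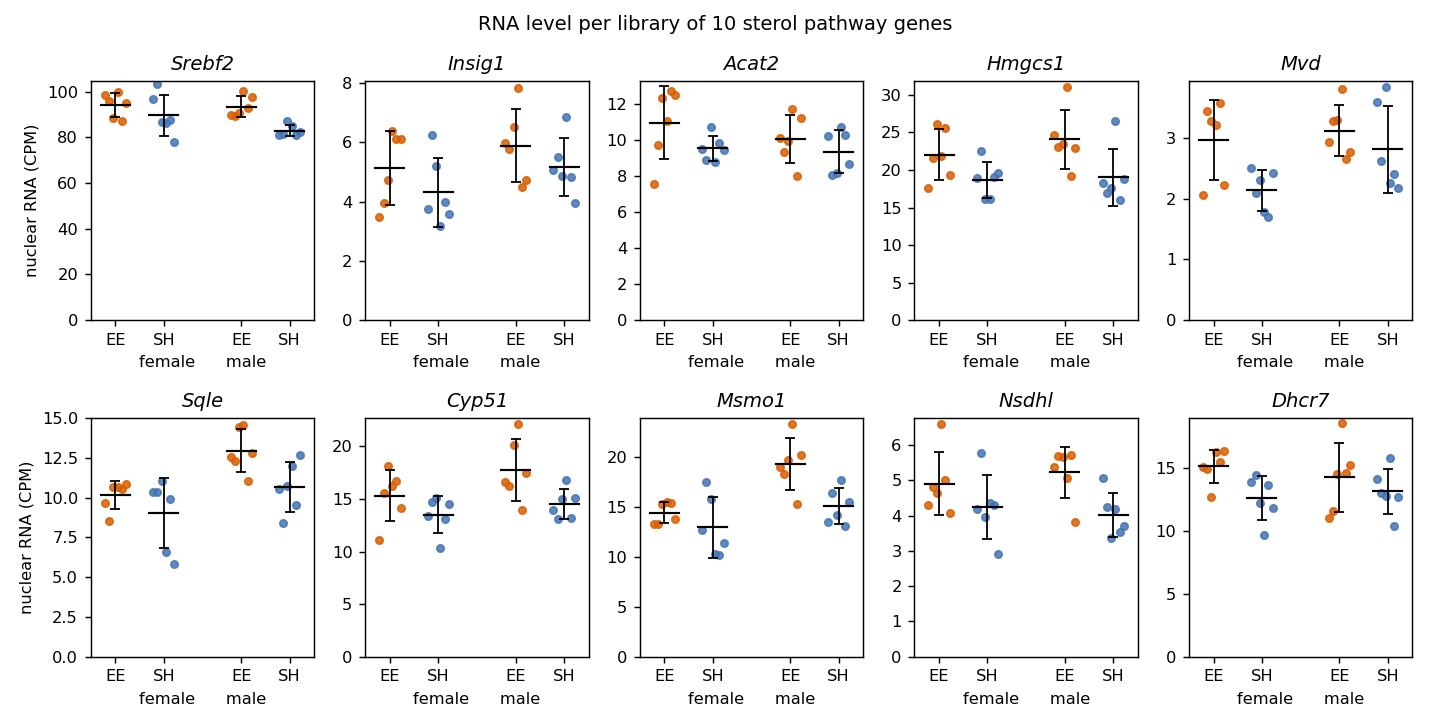
Nuclear RNA level (CPM) in each library for 10 genes, female and male, EE left of SH. Points are libraries, the long bar is the mean and the whiskers are ± SD (n = 6 each). The male EE and SH libraries of Srebf2 do not overlap, and in every other panel the groups overlap.

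Among 7 tested enzymes from acetyl-CoA to isoprenoids, 6 had a higher mean in EE in each sex, with median log2 fold changes of 0.21 in females and 0.15 in males. Hmgcs1 (chr13:119690379-119708260) makes the HMG-CoA from which mevalonate is formed. Its lowest, median and highest libraries were 17.6, 21.7 and 26.2 CPM in female EE, against 16.1, 19.0 and 22.5 CPM in female SH. In males they were 19.3, 23.3 and 31.1 CPM in EE, against 16.005, 17.9 and 26.5 CPM in SH. Male SH replicate 4 held the highest SH value and the other 5 SH libraries lay at or below 18.8 CPM, under every male EE library. Hmgcs1 shares 6190 bases with Gm48342 on the opposite strand. The log2 fold change was 0.23 ± 0.10 in females (adjusted p = 0.532) and 0.35 ± 0.13 in males (adjusted p = 0.477).

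Mvd (chr8:122433601-122443422), the decarboxylase that yields the isoprenoid unit, ran at 2.06, 3.25 and 3.59 CPM in female EE, against 1.71, 2.21 and 2.504 CPM in female SH. In 4 of 6 female EE libraries it exceeded all SH libraries. It had 2.66, 3.11 and 3.81 CPM in male EE, against 2.18, 2.51 and 3.84 CPM in male SH, where every EE library lay within the SH range. Leaving out 1 library at a time moved the male value of Mvd between 0.08 and 0.27. The log2 fold changes were 0.48 ± 0.20 (adjusted p = 0.492) and 0.15 ± 0.17 (adjusted p = 0.872). All of Mvd lies within Gm20388 on the opposite strand, and how the counting used strand is not given in the sources used here.

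Acat2 (chr17:12942890-12960747), the thiolase of the first step, ran at 7.53, 11.7 and 12.7 CPM in female EE, against 8.77, 9.46 and 10.7 CPM in female SH. Female EE replicate 1 was the lowest of all 12, while 4 of the EE libraries exceeded all SH libraries. In males it had 7.97, 10.0 and 11.7 CPM in EE, against 8.04, 9.42 and 10.7 CPM in SH. The log2 fold changes were 0.21 ± 0.12 (adjusted p = 0.668) and 0.11 ± 0.10 (adjusted p = 0.834). The male value of Acat2 was 0.06 without EE replicate 4 and 0.17 without EE replicate 5.

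Idi1, the isomerase, averaged 2.29 ± 0.52 CPM in male EE and 1.58 ± 0.39 CPM in male SH (log2 fold change 0.54 ± 0.21, adjusted p = 0.469), the largest male log2 fold change of the 27 genes. In females Idi1 had a log2 fold change of 0.24 ± 0.29. The kinases Mvk and Pmvk had 0.20 ± 0.13 and 0.15 ± 0.15 in females, and 0.19 ± 0.10 and 0.06 ± 0.10 in males. Ggps1, which makes the geranylgeranyl chain for protein prenylation rather than sterol, was the exception in sign, with -0.03 ± 0.10 in females and -0.04 ± 0.10 in males.

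All 3 enzymes from squalene to lanosterol had a higher mean in EE in both sexes. Sqle (chr15:59315077-59331192), the epoxidase that commits squalene to sterols, ran at 11.0, 12.7 and 14.6 CPM in male EE, against 8.37, 10.6 and 12.7 CPM in male SH. All 6 male EE libraries lay above the SH median, and SH replicates 4 and 6 lay within the EE range. In females it had 8.55, 10.6 and 10.8 CPM in EE, against 5.84, 10.1 and 11.0 CPM in SH, with SH replicates 4 and 6 far below the rest. The log2 fold changes were 0.28 ± 0.10 in males (adjusted p = 0.425) and 0.18 ± 0.14 in females (adjusted p = 0.776), and leaving out SH replicate 6 brought the female value of Sqle down to 0.08. Fdft1, squalene synthase, averaged 36.6 ± 3.02 CPM in male EE and 33.5 ± 1.162 CPM in male SH (0.13 ± 0.06, adjusted p = 0.564), with 0.14 ± 0.10 in females. Lss, which closes the rings to lanosterol, had 0.08 ± 0.10 in females and 0.09 ± 0.07 in males, and shares 11268 bases with 4930483K19Rik on the opposite strand.

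The 9 enzymes from lanosterol to cholesterol had a higher mean in EE in 7 genes in females and 8 in males, with medians of 0.16 and 0.23. Msmo1 (chr8:64718139-64733792), the methylsterol oxidase, gave the second smallest male p of the list. It ran at 15.3, 19.3 and 23.2 CPM in male EE, against 13.031, 14.8 and 17.7 CPM in male SH. In 5 of the 6 EE libraries Msmo1 exceeded every SH library, and EE replicate 5 was the exception. The male log2 fold change was 0.36 ± 0.09 (adjusted p = 0.215). Female values were 13.3, 14.5 and 15.4 CPM in EE, against 10.2, 12.023 and 17.5 CPM in SH (0.16 ± 0.12, adjusted p = 0.774). Female SH replicate 2 held the highest of those SH values, and without it the female value of Msmo1 was 0.26, while without SH replicate 5 it was 0.10.

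Cyp51 (chr5:4081145-4104746), the lanosterol demethylase, ran at 13.9, 17.0 and 22.1 CPM in male EE, against 13.1, 14.5 and 16.8 CPM in male SH. In females it had 11.1, 15.9 and 18.1 CPM in EE, against 10.3, 13.9 and 15.1 CPM in SH. In both sexes 5 of 6 EE libraries lay above the SH median and the groups overlapped. The log2 fold changes of Cyp51 were 0.29 ± 0.10 in males (adjusted p = 0.398) and 0.18 ± 0.11 in females (adjusted p = 0.689), and without female SH replicate 4 the female value was 0.12.

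Nsdhl (chrX:72918557-72958514), a dehydrogenase that acts with Msmo1, ran at 3.83, 5.51 and 5.73 CPM in male EE, against 3.36, 3.95 and 5.06 CPM in male SH. In males EE replicate 6 lay apart from the other EE libraries, which started at 5.05 CPM. In females Nsdhl had 4.07, 4.72 and 6.59 CPM in EE, against 2.92, 4.24 and 5.77 CPM in SH. The log2 fold changes were 0.38 ± 0.13 (adjusted p = 0.425) and 0.21 ± 0.17 (adjusted p = 0.777), and leaving out 1 library moved the female value of Nsdhl between 0.10 (EE replicate 4) and 0.31 (SH replicate 2).

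Dhcr7 (chr7:143823145-143848410), the reductase that ends one branch of the pathway, had the smallest female p of the list. It ran at 12.7, 15.3 and 16.4 CPM in female EE, against 9.70, 12.9 and 14.4 CPM in female SH. In 5 of the 6 female EE libraries it lay above every SH library, with EE replicate 3 as the exception. The female log2 fold change was 0.26 ± 0.10 (adjusted p = 0.438). In males it had 11.0, 14.6 and 18.5 CPM in EE, against 10.4, 12.9 and 15.8 CPM in SH (0.13 ± 0.12, adjusted p = 0.825), and without male EE replicate 4 the male value was 0.04.

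Of the rest of this stretch, Sc5d, a desaturase, averaged 16.7 ± 1.71 CPM in male EE and 14.3 ± 2.21 CPM in male SH (0.23 ± 0.09, adjusted p = 0.495). In females it averaged 14.3 ± 1.21 CPM in EE and 14.3 ± 1.71 CPM in SH (0.0005 ± 0.09). Hsd17b7, a sterol ketone reductase, had -0.06 ± 0.17 in females and 0.23 ± 0.14 in males. Ebp, an isomerase, had 0.16 ± 0.23 and 0.04 ± 0.17. The reductases Tm7sf2 and Lbr, which catalyse the same step, had 0.11 ± 0.14 and -0.01 ± 0.09 in females, and -0.06 ± 0.11 and 0.07 ± 0.07 in males. Lbr is also a receptor of the nuclear lamina, and Tm7sf2 shares 532 bases with Vps51 on its own strand.

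Of the 3 genes of sterol transfer, turnover and efflux, none was called and 2 had a higher mean in EE in each sex. Cyp46a1, the neuronal cholesterol hydroxylase, averaged 54.3 ± 5.24 CPM in female EE and 52.6 ± 6.21 CPM in female SH, and 57.2 ± 4.29 CPM in male EE and 56.4 ± 1.90 CPM in male SH (SD, n = 6 each). Abca1, the efflux pump that the LXR receptors switch on when oxysterols accumulate, had log2 fold changes of -0.07 ± 0.24 and -0.01 ± 0.16. In female SH replicate 2 Abca1 reached 35.3 CPM, against 14.8 to 20.4 CPM in the other female SH libraries. Stard4, a sterol transfer protein and SREBP target, had 0.29 ± 0.15 in males (adjusted p = 0.669) and 0.02 ± 0.24 in females.

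The sexes were set against each other in a fit of all 24 RNA libraries, which tests whether the housing difference is itself different. No member was called (edgeR), against 0.00643% of 15562 genes, and none of the 27 had an unadjusted p under 0.05, against 8.98% of all genes. DESeq2 called 0 of the 3 members to which it gave an adjusted p, against 2.25% of 4097 genes, and 0 of the 27 had an unadjusted p under 0.05 with it. The adjusted p of the members ran from 0.628 for Sc5d to 0.997 for Lss. The female minus male difference in log2 fold change was -0.23 ± 0.13 for Sc5d, -0.20 ± 0.16 for Msmo1, -0.10 ± 0.07 for Srebf2 and 0.33 ± 0.25 for Mvd (SE). Sizes of this order could not be resolved with these libraries, so the data do not show that the sexes were alike.

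The 19 tested enzymes from Acat2 to Dhcr7 were averaged per library as log2 levels against the table mean. In females this level ran from -0.11 to 0.16 in EE libraries and from -0.20 to 0.07 in SH libraries. In males it ran from -0.02 to 0.26 in EE and from -0.22 to 0.02 in SH. EE replicate 1 was the one female EE library below every SH library but SH replicate 4, and EE replicate 5 was the one male EE library below 0. Whether the levels of non-neuronal markers followed those of the enzymes was not tested. In males 9 of 10 astrocyte and all 10 oligodendrocyte markers had a higher mean in EE, and the astrocyte sum ran from 917 to 1076 CPM in EE and from 834 to 946 CPM in SH. The oligodendrocyte sum ran from 103 to 254 CPM in male EE and from 115 to 153 CPM in male SH, with male EE replicate 4 highest. In females 4 of 10 astrocyte and 1 of 10 oligodendrocyte markers were higher in EE. Of tested precursor, microglial and vascular markers, 2 of 4, 2 of 4 and 3 of 4 were higher in male EE, and 2 of 4, 0 of 4 and 2 of 6 in female EE. No marker was called. With the level of the 37 non-neuronal markers as a covariate, the median log2 fold change of the 27 genes was 0.15 in females and 0.13 in males. Of the 27, 3 and 9 had an unadjusted p under 0.05, against 10.7% and 8.87% of all genes. This covariate is a mean over all the non-neuronal lists, so it does not follow astrocytes or oligodendrocytes alone.

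**Figure D4:**
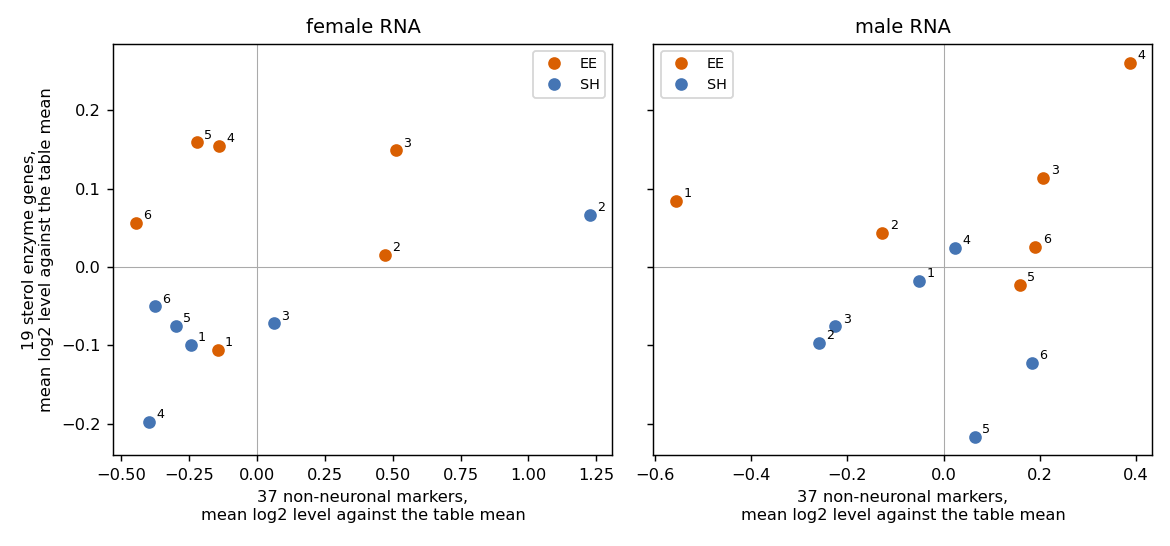
Mean log2 level of the 19 sterol enzyme genes against that of 37 non-neuronal markers in each RNA library, both relative to the mean of the table, with replicate numbers. EE libraries tend to lie higher on the enzyme axis, female SH replicate 2 lies far right at 1.23, and male EE replicate 4 lies highest at 0.26.

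Genes next to the pathway were taken from 4 lists, and no gene of them was called in either sex. Of 8 tested partners of SREBP processing and sterol-regulated degradation, 3 had a higher mean in EE in each sex. Marchf6, a ubiquitin ligase that acts on Sqle, averaged 82.8 ± 3.38 CPM in female EE and 87.8 ± 2.6 CPM in female SH (-0.09 ± 0.04, adjusted p = 0.620). Ube2g2, a ubiquitin-conjugating enzyme, averaged 2.34 ± 0.83 and 1.68 ± 0.38 CPM in female EE and SH (0.48 ± 0.26, adjusted p = 0.644). Of 14 fatty acid genes, targets of SREBP1, 5 were higher in female EE (median -0.01) and 13 in male EE (median 0.12). Over all genes 50.6% and 47.9% were higher. Of the 14, 2 in females and 3 in males had an unadjusted p under 0.05, against 8.67% and 8.03% of all genes. The 2 in females differed in sign. Me1, malic enzyme, averaged 50.9 ± 4.97 CPM in female EE and 60.7 ± 4.84 CPM in female SH (-0.25 ± 0.07, adjusted p = 0.187). Me1 was called by DESeq2 (adjusted p = 0.0476), by edgeR without the filter on low counts (0.0299) and by edgeR without female SH replicate 2 (0.0452). DESeq2 called 1.4% of 8648 genes and edgeR without the filter 0.501% of 33545. Without SH replicate 2 edgeR called 85 genes. The adjusted p of Me1 ranged from 0.0299 to 0.396 over all settings tried. Acaca, acetyl-CoA carboxylase, averaged 154 ± 10.3 CPM in male EE and 139 ± 9.24 CPM in male SH (0.15 ± 0.05, adjusted p = 0.397).

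Of 14 genes of isoprenoid use, 4 were higher in female EE and 8 in male EE. Chm, which presents Rab proteins for prenylation, averaged 71.2 ± 6.24 CPM in female EE and 79.1 ± 5.08 CPM in female SH (-0.15 ± 0.06, adjusted p = 0.466). Rabggtb, a subunit of the enzyme that attaches the prenyl chain, averaged 7.49 ± 0.42 CPM in male EE and 8.57 ± 0.37 CPM in male SH (-0.20 ± 0.08, adjusted p = 0.550). Of the genes of sterol transport and LXR, 12 of 20 were higher in female EE and 10 of 19 in male EE. Stard5, a lipid transfer protein, averaged 5.50 ± 0.94 CPM in female EE and 3.78 ± 0.72 CPM in female SH (0.54 ± 0.16, adjusted p = 0.244). Nr1h3, which encodes an LXR, averaged 1.19 ± 0.33 CPM in female EE and 0.80 ± 0.27 CPM in female SH (0.59 ± 0.30, adjusted p = 0.607).

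In open chromatin, 26 of the 28 genes had a region within 1 kb of the start in both tables, all but Insig2 and Pmvk. Mean levels of these promoter regions ran from 1.68 to 92.2 CPM in females and from 0.669 to 61.5 CPM in males, both highest at Ggps1. The start used was the outer end of the gene span. Insig2 and Pmvk also have RefSeq starts further inside the span, which lie within an open region in both tables. These regions count here as inside the gene. That of Insig2 had 29.1 to 35.8 CPM in females and 19.9 to 25.0 CPM in males. A gene had 1 to 17 regions in the female and 1 to 9 in the male table, with the most at Fdft1. No member region was called (edgeR), against 0.0473% of 164926 regions in the female and 0% of 192834 in the male table. DESeq2 called 0 of the 52 female and 91 male member regions with an adjusted p, against 0.177% and 0.00394% of all regions that had one. limma voom called 0 of the 129 and 99, against 0.0267% and 0% of all regions. In females 9 of the 129 regions had an unadjusted p under 0.05, 1 of them higher in EE, where 8.01% of all regions did, 4.53% higher and 3.48% lower in EE. In males 3 of the 99 did, 2 of them higher in EE, where 4.54% of all regions did, 2.62% higher and 1.92% lower in EE. Of all member regions 34 of 129 were higher in female EE and 35 of 99 in male EE, against 48.3% and 49.7% of all regions.

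Promoter regions of these genes had slightly lower means in EE. In females 5 of 33 were higher in EE (median log2 fold change -0.09), and in males 6 of 27 (median -0.03). The same tilt was present over promoter regions of all genes that met the level rule, with 29.7% of 15509 higher in female EE (median -0.07) and 28.6% of 12305 in male EE (median -0.03). Without male EE replicate 4, 12 of the 27 male promoter regions were higher in EE, and without female SH replicate 2, 9 of the 33 female ones. Regions inside the genes were higher in EE in 29 of 96 in females and 29 of 72 in males, against 44.6% and 47.7% of such regions of all genes.

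**Figure D5:**
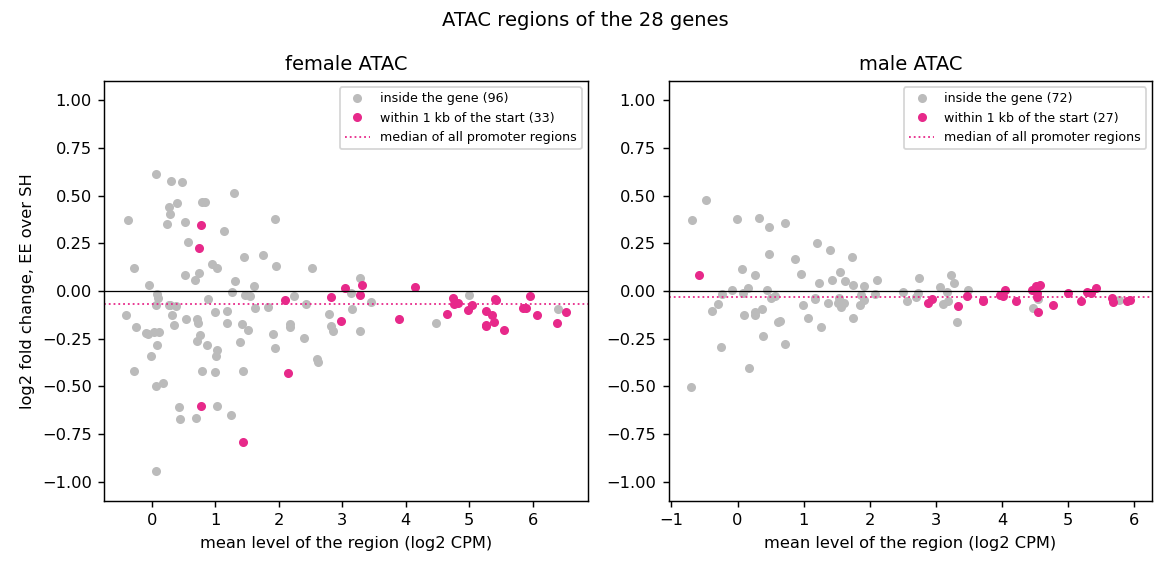
Log2 fold change of EE over SH for each ATAC region of the 28 genes against its mean level (log2 CPM), in the female and male tables. Points within 1 kb of a start are pink and points inside genes grey, and the dotted line is the median of promoter regions of all genes (-0.07 in females, -0.03 in males). The promoter regions cluster at high levels just below 0, and the wide spread lies at low levels.

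The promoter region of Hmgcs1, with the SREBP element printed above, had 71.3, 86.7 and 77.0 CPM in the female EE libraries, against 81.2, 103 and 80.0 CPM in the female SH libraries. It had 54.7 to 61.5 CPM in male EE and 57.2 to 63.6 CPM in male SH libraries. The groups overlapped in both, with log2 fold changes of -0.17 ± 0.10 and -0.05 ± 0.05 (adjusted p = 0.698 and 1.00). Without female SH replicate 2, the highest of the 6, the female value of the Hmgcs1 promoter region was -0.04. The promoter region of Srebf2 had 38.7, 32.8 and 36.1 CPM in female EE, against 33.4, 48.1 and 40.3 CPM in female SH (-0.18 ± 0.11, adjusted p = 0.723). That value was -0.30 without SH replicate 1 and -0.04 without SH replicate 2. In males it had 19.5 to 25.7 CPM in EE and 17.1 to 23.6 CPM in SH (0.005 ± 0.08, adjusted p = 1.00), so the gene with separated male RNA groups showed overlapping accessibility. The promoter regions of the other named genes, Sqle, Cyp51, Msmo1, Nsdhl, Dhcr7, Mvd, Acat2 and Insig1, had log2 fold changes of -0.16 to -0.03 in females and -0.06 to 0.03 in males. Without female SH replicate 2 the female values were -0.07 for Insig1, -0.0053 for Mvd and -0.0007 for Acat2, and those of Cyp51 and Msmo1 were above 0 (0.0154 and 0.0784). The female value of Dhcr7 ran from -0.2455 to -0.0577 and that of Nsdhl from -0.1382 to 0.0224 with 1 library left out.

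The female region with the smallest p was a short one just downstream of the Cyp46a1 start (chr12:108334616-108334953). It had 2.07, 1.90 and 2.00 CPM in the EE libraries, against 3.34, 3.55 and 3.45 CPM in the SH libraries. The groups did not overlap, as was the case for 16 of the 129 member regions and for 12.8% of all regions in the female table. Its log2 fold change was -0.79 ± 0.25 (adjusted p = 0.254), while the main promoter region of Cyp46a1 beside it had -0.21 ± 0.10 in females. In the male table a single region covers both, with 31.8 ± 3.91 CPM in EE (SD, n = 6) and 32.01 ± 2.103 CPM in SH (SD, n = 7).

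The other regions with the smallest p were faint ones inside genes. In females, regions in Insig1 (chr5:28072861-28073301), Scap (chr9:110376449-110376684) and Hmgcs1 (chr13:119692447-119692756) averaged 1.86, 0.71 and 1.26 CPM in EE, against 2.90, 1.39 and 1.98 CPM in SH. Their adjusted p were 0.484, 0.511 and 0.587. In males, regions in Hsd17b7 (chr1:169956113-169956778), Abca1 (chr4:53117460-53117844) and Scap (chr9:110359573-110359893) averaged 1.87, 1.43 and 1.58 CPM in EE, against 1.44, 1.104 and 1.22 CPM in SH. A region in Sqle (chr15:59330225-59330807) averaged 0.95 CPM in EE and 1.27 CPM in SH. All 4 had an adjusted p of 1.00, and the EE and SH libraries overlapped in each. Whether the starts of these regions count from 0 or 1 is not given, so they may be off by 1 base.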

How the data were processed

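Nuclear RNA-seq and ATAC-seq libraries of sorted frontal cortex nuclei were analysed from tables of counts per gene or region that the authors deposited, 1 table for each sex and assay. The submitters' processing notes name MACS2 2.1.1, DiffBind 3.2.2, STAR 2.5.4, bedtools, DESeq2 1.16.1, edgeR and SAMtools 1.3.1 and the build mm10, without saying which tool made which table. Whether counting used strand is not given in the sources used here. In the male RNA table the column names are 1 cell short and were moved past the gene ID. Of 53379 gene IDs, 53274 matched a symbol.

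EE was compared with SH in each table in R 4.3.3 with edgeR 4.0.16 (filterByExpr, TMM, robust quasi-likelihood test). P-values were adjusted by Benjamini-Hochberg over every feature tested, and a feature was called at an adjusted p under 0.05. CPM use TMM library sizes, the SE is the log2 fold change over the root of F, and the sexes were compared by an interaction term. DESeq2 1.42.0 and limma 3.58.1 (voom) served as alternatives, as did other scalings, no low-count filter, a marker covariate, a replicate block and leaving out each library. The script was tested on simulated data.

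The genes, lists and tests were chosen with earlier results of these data known. Values by library are given for the 5 genes with the smallest p in each RNA table and for Srebf2, Insig1, Hmgcs1 and Sqle, for the 4 regions with the smallest p in each ATAC table and for promoter regions of those genes. Of each neighbouring list, the 2 genes with the smallest p are named.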

Additional observations from a re-analysis of the deposited data

Results flagged for a closer look

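In groups of 4 to 10 libraries, a library was marked when its gap to the next one took up more of the group's range than Dixon's 95% limit, and 6 of 136 groups were marked, where chance marks about 1 in 20. In RNA, Pmvk was 4.66 CPM in female EE replicate 1, against 7.54 to 8.87 CPM in the other female EE libraries. Abca1 was 35.3 CPM in female SH replicate 2, against 14.8 to 20.4 CPM in the other female SH libraries. Hmgcs1 was 26.5 CPM in male SH replicate 4, against 16.005 to 18.8 CPM in the other male SH libraries. Nsdhl was 3.83 CPM in male EE replicate 6, against 5.05 to 5.73 CPM in the other male EE libraries. In ATAC, the Nsdhl promoter region was 19.1 CPM in male EE replicate 4, against 17.5 to 18.1 CPM in the others, and the Msmo1 promoter region was 61.3 CPM in male SH replicate 6, against 48.3 to 52.4 CPM.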

How the results depend on the processing

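Counts of called members stayed at 0 under every alternative tried except in male RNA, where 3 were called without the filter on low counts (Hmgcs1, Cyp51 and Msmo1) and 1 with DESeq2 (Srebf2). Over all genes, calls in female and male RNA numbered 168 and 136 without the filter, 121 and 49 with DESeq2 and 42 and 10 with the marker covariate, against 0 and 6. Member regions with an unadjusted p under 0.05 numbered 4 with DESeq2 in female ATAC (9 in the fit reported) and 6 with the replicate block in male ATAC (3 in the fit reported). Scaling by total count alone moved all genes higher in EE to 57.8% in females and 36.2% in males, with 22 and 21 of the 27 members higher (medians 0.16 and 0.10). The cause was not tested in any of these.

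With 1 library left out, members with an unadjusted p under 0.05 ranged over 0 to 6 in female RNA (0 without SH replicate 4, 1 without EE replicate 5, 6 without EE replicate 1 or SH replicate 2) and 7 to 10 in male RNA. Over all genes that p was reached by 7.15%, 9.23%, 9.23% and 11.2% in these female fits, in the order given. Members higher in EE ranged over 19 to 22 and 22 to 23, and medians over 0.0711 to 0.1789 and 0.0773 to 0.1742. Member regions at that p ranged over 6 to 9 in female ATAC and 2 to 7 in male ATAC (7 without EE replicate 3), regions higher in EE over 34 to 46 and 27 to 51, medians over -0.1312 to -0.0588 and -0.0512 to 0.0009, and promoter regions higher in EE over 3 to 9 and 3 to 12. Called members stayed at 0 to 0 in each table and in the interaction, whose count at an unadjusted p under 0.05 ranged over 0 to 1.

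Promoter regions near 0 in males changed sign. That of Cyp51 was 0.0056 with total counts, 0.0074 with limma voom and 0.0044 with the replicate block, that of Acat2 was 0.0092 with the block, and those of Mvd and Srebf2 were -0.0038 and -0.0196 with limma voom. With 1 library left out, these male values ranged over -0.0698 to 0.0399 for Acat2, -0.0355 to 0.021 for Cyp51, -0.1134 to 0.0033 for Dhcr7, -0.0433 to 0.0722 for Mvd, -0.0266 to 0.0009 for Sqle and -0.0454 to 0.038 for Srebf2, and female ones over -0.1417 to 0.0154 for Cyp51, -0.0931 to 0.0784 for Msmo1 and -0.1382 to 0.0224 for Nsdhl.

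The labels do not say that a replicate number, taken from the sample titles, marks a shared cage, litter or day. Not every same-numbered pair of EE and SH libraries correlated above 0.1, so the fits reported do not use the numbers to pair them. These pairs correlated at 0.0292 to 0.3215 in female RNA, -0.0379 to 0.2338 in male RNA, -0.0736 to 0.07 in female ATAC and -0.1246 to 0.2056 in male ATAC, of which 4 of 6, 2 of 6, 0 of 3 and 3 of 6 were above 0.1, and 3 of 6, 2 of 6, 1 of 3 and 2 of 6 correlated best with their own number. With the replicate block 0 members were called in each table and in the interaction, and 3, 10, 7 and 6 had an unadjusted p under 0.05 in the 4 tables. Calls over all features with the block were 95 in female RNA, 3 in male RNA, 34 in female ATAC, 1 in male ATAC and 28 in the interaction, against 0, 6, 78, 0 and 1 without it. In male RNA the EE and SH column names carry different numbers within every pair except that of replicate 6. The male RNA correlations and block therefore do not test pairing by column name. In female RNA the column names carry the same numbers within each pair, and all 6 pairs correlated above 0. Whether the female RNA libraries were collected in pairs was not tested. Depth limits the genes near 1 CPM, which rest on few reads.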
